A study of Mus musculus with 52 samples.

Results

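Insulin and the insulin-like growth factors act through a small set of receptors and adaptors, and 8 genes of that set were followed here across 3 brain regions and 3 infusions. They were the receptor genes Insr, Igf1r and Igf2r, the insulin receptor substrate genes Irs1, Irs2 and Irs4, and the growth factor genes Igf1 and Igf2. The genes were chosen by name, each symbol matched 1 Ensembl identifier, and all 8 were found among the 46071 genes of the count table. The mice were 3-month-old C57BL/6J males that had been infused for 3 h through a jugular catheter while conscious, with glucose infused alongside. Saline at 0 mU/kg/min of insulin gave the basal group, 4 mU/kg/min the low group and 12 mU/kg/min the high group. Total RNA from the hypothalamus, the nucleus accumbens and the hippocampus gave 52 stranded libraries. The hypothalamus had 5 basal, 6 low and 5 high libraries, and each infusion group of the other regions had 6. The labels name no genetic change in any group, and every group shared the strain, the sex, the age and the length of infusion.

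Insr is the tyrosine kinase receptor for insulin, and Igf1r is its close relative for insulin-like growth factor 1. Igf2r, the cation-independent mannose 6-phosphate receptor, has no kinase domain and carries insulin-like growth factor 2 to lysosomes. Activated Insr and Igf1r phosphorylate the Irs proteins, which recruit phosphoinositide 3-kinase and so lead to Akt and to the exclusion of FOXO transcription factors from the nucleus. In the hypothalamus this signalling is known for its part in feeding and in hepatic glucose output, and in the hippocampus for its part in synaptic plasticity. Igf1 is made by neurons, microglia and other cells of the brain. Igf2, an imprinted gene, is made in the adult brain largely by the leptomeninges, vessels and choroid plexus.

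Sequencing depth sets how precisely the less abundant of these genes are known. Total counts per library ran between 2453412 and 8279612 (median 4654641.5). Levels are given as CPM, read counts relative to library size, with library sizes scaled by TMM over all 52 libraries to allow for composition. All 8 genes passed the filter on low counts in the hypothalamus, the accumbens and the saline libraries, and 7 of 8 passed in the hippocampus, where Irs4 was removed. No label says that the libraries of a group came from different mice, so p-values reflect the spread among libraries, part of which may be technical. In whole tissue, fewer cells of a type and less RNA per cell cannot be told apart. The regional labels were checked against lists of marker genes. The summed level of 5 hypothalamic peptide genes ran from 43.8 to 1606 CPM in the hypothalamus, 0.596 to 42.9 CPM in the accumbens and 0.238 to 2.97 CPM in the hippocampus, and that of 6 striatal genes from 80.0 to 219.9, 618 to 1618 and 32.7 to 141 CPM. The 5 hippocampal and cortical excitatory markers summed to 50.9 to 166 CPM in the hypothalamus, 47.5 to 849.7 CPM in the accumbens and 1419 to 2961 CPM in the hippocampus. The hypothalamic groups were also unequal in composition. A library was called leaning where its deviation from its regional mean rose with the GC content of transcripts (Spearman above 0.4 across genes), which held for 3 of 5 basal, 0 of 6 low and 0 of 5 high libraries. At least 1 of the 5 peptide genes was below 1 CPM in 0 of 5 basal, 3 of 6 low and 2 of 5 high libraries. Each title carries a number in brackets whose meaning the labels do not state. These numbers fall into 3 ranges, and in the hypothalamus the lowest range holds 2 basal and 1 low, the middle range 2 low and 2 high, and the highest range 3 libraries of each infusion. They also fall into 8 runs, a new run starting where the next number is more than 10 higher. Fits were repeated with the range, the run, the lean or a score of fibroblast or choroid plexus markers (their mean log2 level) as a term.

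The 8 genes lie on 6 chromosomes. In GENCODE M21 on GRCm38, Insr (ENSMUSG00000005534) occupies chr8:3122061-3279617 on the minus strand, Igf1r (ENSMUSG00000005533) chr7:67952827-68233668 on the plus strand, and Igf2r (ENSMUSG00000023830) chr17:12682406-12769664 on the minus strand. Irs1 (ENSMUSG00000055980) lies at chr1:82233101-82291416 on the minus strand, Irs2 (ENSMUSG00000038894) at chr8:10984681-11008458 on the minus strand, and Irs4 (ENSMUSG00000054667) at chrX:141710998-141725263 on the minus strand. Igf1 (ENSMUSG00000020053) lies at chr10:87858265-87937042 on the plus strand and Igf2 (ENSMUSG00000048583) at chr7:142650766-142666816 on the minus strand. All are protein-coding, and counts cover whole genes, so isoforms were merged. The receptors have 21 to 49 merged exon blocks and the 3 Irs genes have 2 each. Some exon bases are shared with other genes. Gm49394 overlaps 3596 exon bases of Igf2 on the same strand and has no row in the count table. On the opposite strand, Gm9747 shares 2822 exon bases with Irs1, Gm15295 shares 383 with Irs4, 9530052E02Rik shares 162 with Irs2 and Igf2os shares 98 with Igf2. Whether the counting used strand is not given in the sources used here, so reads over those stretches are uncertain.

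The sequences just upstream of the 3 Irs genes are shown because Irs4 had the largest difference between regions of the 8 genes, and its upstream letters share an arrangement of motifs with Irs1 and Irs2. As background, insulin lowers Irs2 transcription in the liver through FOXO factors. RefSeq promoter windows (GRCm38.p6, 250 bases upstream of the start) existed for 7 of the 8 genes. They were searched on both strands for the E-box CACGTG, the FOXO-type motif CAAAACA, which reads TGTTTTG on the other strand, and the FOXO motif GTAAACA. The capitals mark CACGTG and TGTTTTG, read 5′ to 3′ on the minus strand of chr1:82291440-82291689, chr8:11008930-11009179 and chrX:141725264-141725467, the last being 204 bases long because it ends where the annotated transcript begins.
Irs1: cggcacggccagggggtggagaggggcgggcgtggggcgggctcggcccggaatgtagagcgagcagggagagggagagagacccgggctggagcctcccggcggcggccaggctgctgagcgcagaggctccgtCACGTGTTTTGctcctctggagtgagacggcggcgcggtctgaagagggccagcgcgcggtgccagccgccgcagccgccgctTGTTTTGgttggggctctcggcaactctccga
Irs2: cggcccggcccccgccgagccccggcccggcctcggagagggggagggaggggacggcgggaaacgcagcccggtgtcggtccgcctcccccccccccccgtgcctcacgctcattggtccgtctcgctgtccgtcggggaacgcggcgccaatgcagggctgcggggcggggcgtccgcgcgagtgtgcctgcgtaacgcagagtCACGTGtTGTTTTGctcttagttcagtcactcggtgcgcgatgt
Irs4: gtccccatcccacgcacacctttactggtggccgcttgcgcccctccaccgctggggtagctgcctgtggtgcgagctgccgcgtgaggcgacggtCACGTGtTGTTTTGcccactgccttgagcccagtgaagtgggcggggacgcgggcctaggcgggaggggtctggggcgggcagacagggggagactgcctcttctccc
In Irs2 and Irs4 the E-box and the FOXO-type motif stand 1 base apart in the same 14-base run, CACGTGTTGTTTTG, and in Irs1 they overlap in the 11-base run CACGTGTTTTG. The E-box starts 115 bases upstream of the RefSeq start of Irs1, 44 bases upstream of that of Irs2 and 154 bases upstream of that of Irs4. The RefSeq start of Irs4 lies inside the GENCODE transcript, so the 154 bases run past the end of the stretch shown. Irs1 has another TGTTTTG beginning 32 bases upstream. Of 32851 RefSeq windows of that length, 6.02% held CACGTG, 5.56% held CAAAACA or its reverse complement, and 3.17% held GTAAACA, which no window of these 7 genes held. The 2 motifs within 2 bases of each other were found in 7 windows (0.0213%), 3 of them those of Irs1, Irs2 and Irs4. The 14-base run was found in the windows of Irs2 and Irs4 alone. These runs were read from the windows of the 8 genes and then counted, so those windows had to be among the hits. The limit of 2 bases also takes in their spacing, so these counts are no independent test of rarity. Igf2r held CACGTG in 2 places. A match describes letters and does not show binding.

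Per length of exon, the receptors and adaptors kept much the same order in the 3 regions apart from Irs4 and Igf2. Insr, Igf2r and Irs2 stood close together, Igf1r lay below them, and Irs1 and Igf1 came last apart from hippocampal Irs4. In the hypothalamus Irs4 led with 19.1 ± 5.80 CPM per kb (SD, n = 16) and exceeded Insr in 15 of 16 libraries. There, Insr had 8.82 ± 1.94, Igf2r 8.41 ± 1.41 and Irs2 7.87 ± 1.86 CPM per kb. These 3 neighbours lay within an SD of each other. In the accumbens Insr had 9.50 ± 1.52, Igf2r 8.64 ± 1.16, Irs2 8.50 ± 1.65 and Irs4 7.03 ± 4.96 CPM per kb (n = 18), again neighbours within an SD. In the hippocampus Igf2 had the highest mean, 11.8 ± 11.7 CPM per kb (n = 18), but exceeded Igf2r, at 8.85 ± 1.67, in 8 of 18 libraries. Irs2 and Insr followed in the hippocampus with 8.64 ± 2.13 and 7.92 ± 1.64 CPM per kb. Igf2 stood at 4.48 ± 4.24 CPM per kb in the hypothalamus and 4.17 ± 2.15 in the accumbens. Igf1r stood at 2.77 ± 0.707 CPM per kb in the hypothalamus, 2.73 ± 0.615 in the accumbens and 2.95 ± 0.957 in the hippocampus. Irs1 had 1.57 ± 0.371, 1.23 ± 0.297 and 1.75 ± 0.543 CPM per kb in the same order of regions, and Igf1 had 1.07 ± 0.332, 0.784 ± 0.291 and 1.18 ± 0.322. Irs4 in the hippocampus was at 0.0506 ± 0.0612 CPM per kb, the lowest of the 24 means.

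**Figure D1:**
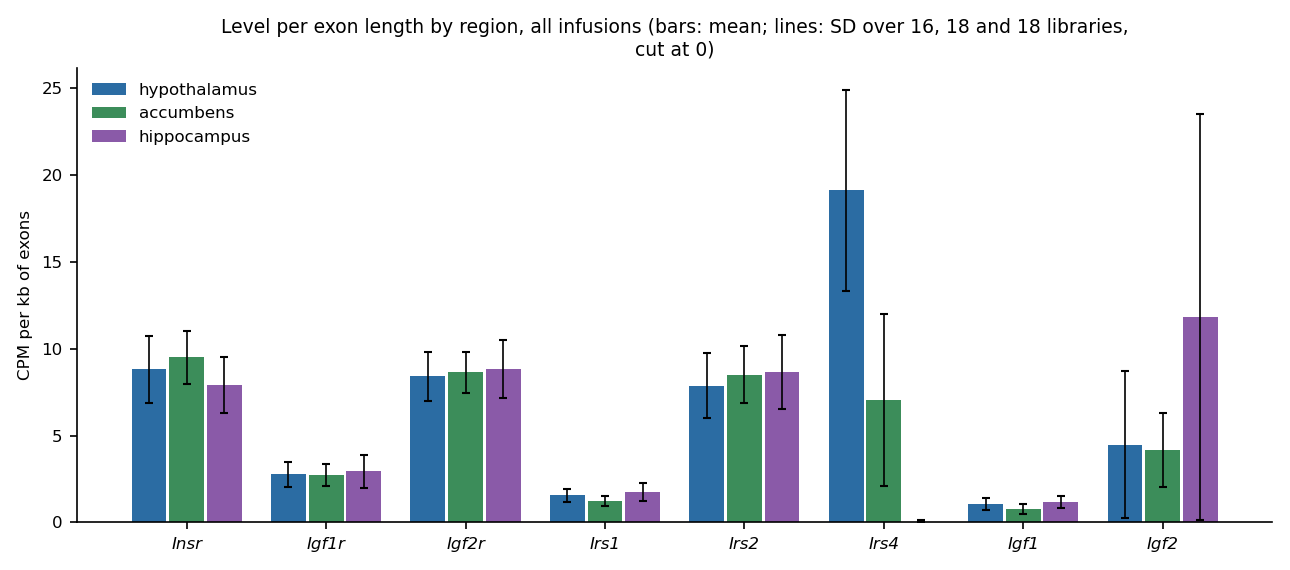
Bars give the mean level of each of the 8 genes in CPM per kb of exons over 16 hypothalamic, 18 accumbal and 18 hippocampal libraries, and lines give the SD, cut at 0. Irs4 is tallest in the hypothalamus and near 0 in the hippocampus, while Insr, Igf2r and Irs2 stand between 7.87 and 9.50 CPM per kb in every region.

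Per kb of exons, Insr had a higher RNA level than Igf1r in every library, and receptor protein was not measured. The ratio of Insr to Igf1r, each per kb, was 3.23 ± 0.389 in the hypothalamus (SD, n = 16), 3.56 ± 0.501 in the accumbens (n = 18) and 2.85 ± 0.774 in the hippocampus (n = 18), and its lowest value was 1.89 in 1 hippocampal library. The make-up of the adaptors differed more. Of the summed level of the 3 Irs genes per kb, Irs4 took 66.1% ± 7.46 in the hypothalamus (range 45.4% to 75.1%), 37.5% ± 20.5 in the accumbens (range 1.37% to 64.9%) and 0.612% ± 0.991 in the hippocampus (range 0% to 3.94%). Irs2 took 28.2% ± 6.16, 54.8% ± 18.7 and 82.5% ± 4.72 in those regions, and Irs1 took 5.67% ± 1.84, 7.76% ± 2.76 and 16.8% ± 4.65. The hypothalamic and hippocampal ranges of the Irs4 share did not overlap, and the accumbal range reached into both.

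**Figure D2:**
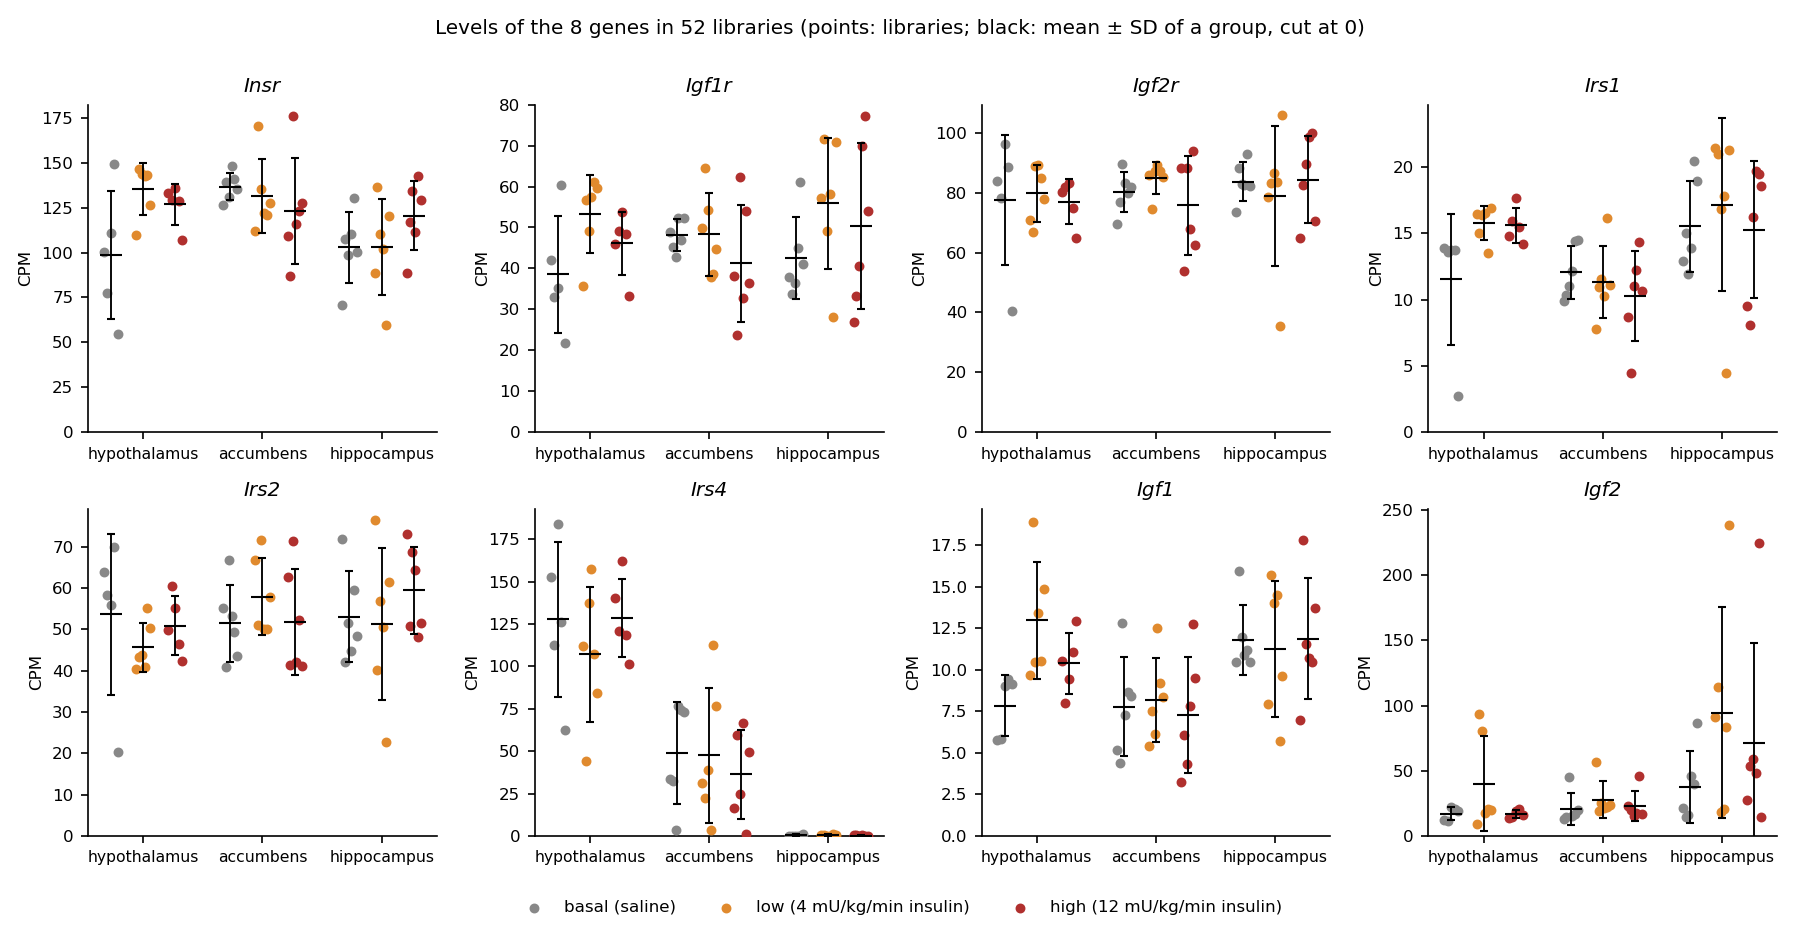
Each panel plots the level of 1 gene in CPM for every library, with basal in grey, low in orange and high in red within the hypothalamus, the accumbens and the hippocampus, and black marks give the mean ± SD of a group, cut at 0. Irs4 spans 44.4 to 184 CPM in the hypothalamus and stays at or below 1.38 CPM in the basal hippocampus, and single Igf2 libraries stand far above their groups.

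Regional differences were tested in the 17 saline libraries, and Irs4 had by far the largest. Irs4 had 153, 113, 184, 126 and 62.5 CPM in the basal hypothalamus, 33.7, 32.6, 3.28, 76.5, 74.5 and 73.2 CPM in the basal accumbens, and 0, 0.184, 0, 0, 0.238 and 1.38 CPM in the basal hippocampus. Every hypothalamic and every accumbal library stood above every hippocampal one, where 0, 1 or 7 reads were counted per library. Between hypothalamus and hippocampus the means were 128 ± 45.5 CPM (SD, n = 5) and 0.301 ± 0.541 CPM (n = 6), a fitted log2 fold change of 8.35 (SE 0.76, 95% interval 6.76 to 9.94, adjusted p = 3.98e-08) in edgeR's quasi-likelihood test, with Benjamini-Hochberg adjustment over 14093 genes. Between accumbens and hippocampus it was 6.98 (SE 0.77, 95% interval 5.37 to 8.58, adjusted p = 7.73e-07), with an accumbal mean of 49.0 ± 30.3 CPM. These fitted values depend on the few hippocampal reads, and the first lay between 7.98 and 9.94 under the other settings. Over all 18 hippocampal libraries only 28 Irs4 reads were counted. Between hypothalamus and accumbens Irs4 differed by 1.37 (SE 0.45, 95% interval 0.43 to 2.31, adjusted p = 0.0288), and 4 of 5 hypothalamic libraries stood above every accumbal one. That call was lost with no filter on low counts (1.37, adjusted p = 0.101), in DESeq2 (1.38, adjusted p = 0.107), with the range or the run of title numbers as a term (1.09, adjusted p = 0.0891 and 1.13, adjusted p = 0.0535), with the fibroblast score (1.28, adjusted p = 0.0712), and on leaving out hypothalamic basal replicate 1, 2 or 3 or accumbal basal replicate 1 or 2 (between 1.13 and 1.54 over all libraries left out in turn).

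Both growth factor genes were lower in the saline hypothalamus than in the saline hippocampus. Igf1 had 5.80, 5.85, 9.04, 9.42 and 9.17 CPM in the hypothalamus, 5.18, 4.37, 12.8, 7.31, 8.68 and 8.41 CPM in the accumbens and 10.5, 16.0, 12.0, 10.9, 11.2 and 10.5 CPM in the hippocampus. All 5 hypothalamic libraries and 5 of 6 accumbal ones lay below every hippocampal one. Its log2 fold change was -0.61 (SE 0.24, adjusted p = 0.0428) for hypothalamus over hippocampus and -0.62 (SE 0.23, adjusted p = 0.0453) for accumbens over hippocampus. The hypothalamus and the accumbens differed by 0.01 (SE 0.24, adjusted p = 0.982). The means were 7.86 ± 1.86, 7.79 ± 3.00 and 11.8 ± 2.11 CPM in hypothalamus, accumbens and hippocampus. Both calls stood close to the threshold. A fit of all 52 libraries, with infusion as an added term, also took in the insulin-infused ones. It compares regions over all 3 infusions and not under saline alone. Against the hippocampus, the hypothalamic call was lost with total-count scaling (-0.44, adjusted p = 0.123), with no filter, with the range or the run of title numbers as a term (-0.44, adjusted p = 0.124 and -0.42, adjusted p = 0.222), with all 52 libraries fitted (-0.17, adjusted p = 0.356), and without hypothalamic basal replicate 1 or 2, hippocampal basal replicate 2 or 3, or accumbal basal replicate 4, 5 or 6. The accumbal call was lost with total-count scaling, with no filter, with the fibroblast score, and on leaving out any library in turn other than accumbal basal replicate 3, hippocampal basal replicate 1 and the 5 hypothalamic ones.

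Igf2 had 12.0, 11.4, 21.8, 20.8 and 19.2 CPM in the saline hypothalamus, 12.7, 14.5, 45.3, 15.0, 16.7 and 19.6 CPM in the accumbens and 21.6, 14.7, 15.9, 46.2, 39.8 and 86.6 CPM in the hippocampus. The hippocampal libraries were the most uneven, and the groups overlapped. The log2 fold change of hypothalamus over hippocampus was -1.15 (SE 0.42, adjusted p = 0.0328), with means of 17.1 ± 4.97 CPM (n = 5) and 37.5 ± 27.3 CPM (n = 6). It lost its call once a score of choroid plexus markers was added (-0.28, adjusted p = 0.624) and without hippocampal basal replicate 6 (-0.73, adjusted p = 0.116). It also lost its call with total-count scaling, no filter or the range or run of title numbers, and without hypothalamic basal replicate 1, 2 or 5. Accumbens over hippocampus gave -0.89 (SE 0.39, adjusted p = 0.106) and hypothalamus over accumbens -0.26 (SE 0.42, adjusted p = 0.662).

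The receptors and the other adaptors did not pass the test in the regional comparisons of saline libraries as fitted, though the values of Insr lay near the threshold. Insr had 100.2, 77.6, 111, 149.6 and 54.8 CPM in the hypothalamus, 126, 139, 131, 148, 141 and 135 CPM in the accumbens and 70.6, 108, 98.4, 110.2, 131 and 100.1 CPM in the hippocampus. The accumbal libraries were closest together and the groups overlapped. Insr gave 0.41 (SE 0.18, adjusted p = 0.0961) for accumbens over hippocampus and -0.48 (SE 0.19, adjusted p = 0.0617) for hypothalamus over accumbens. The value for hypothalamus over accumbens turned on single libraries, since it passed in 8 of the 17 fits that each left out 1 library, with -0.67, adjusted p = 0.00618 without hypothalamic basal replicate 4 and -0.33, adjusted p = 0.152 without hypothalamic basal replicate 5, and it passed with the run of title numbers as a term (-0.56, adjusted p = 0.0483). Accumbens over hippocampus passed for Insr with total-count scaling (0.54, adjusted p = 0.0270), with the run of title numbers (0.51, adjusted p = 0.0222), with all 52 libraries fitted (0.28, adjusted p = 0.0166) and without hypothalamic basal replicate 4 or 5. Igf1r passed with the run of title numbers for hypothalamus over accumbens (-0.61, adjusted p = 0.0282). Irs1 gave -0.44 (SE 0.27, adjusted p = 0.208) for hypothalamus over hippocampus and -0.37 (SE 0.26, adjusted p = 0.342) for accumbens over hippocampus. The log2 values of Igf1r, Igf2r and Irs2 lay between -0.34 and 0.18 in all 3 comparisons.

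In all, 3 of 8 genes were called between hypothalamus and hippocampus, 1 higher and 2 lower, where 44.1% of all genes tested were called (22.9% higher and 21.1% lower). Between accumbens and hippocampus 2 of 8 were called, 1 in each direction, beside 27.9% of all genes (14.2% higher and 13.7% lower). Between hypothalamus and accumbens 1 of 8 was called, in the higher direction, beside 29.0% of all genes (15.1% higher and 13.9% lower). With 8 genes a single call moves the share a great deal, so these counts are not read as a trait of the set. Groups that did not overlap numbered 1 higher and 1 lower between hypothalamus and hippocampus, where the shares over all genes were 11.8% and 13.6%, and 1 higher between accumbens and hippocampus, beside 8.30%.

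Irs4 was also the most uneven of the 8 genes within the accumbens. It had 33.7, 32.6, 3.28, 76.5, 74.5 and 73.2 CPM in basal, 31.2, 22.6, 38.9, 3.42, 113 and 76.7 CPM in low and 16.3, 59.7, 24.9, 66.4, 0.860 and 49.6 CPM in high libraries. In each infusion group 1 library stood near 0, which was basal replicate 3, low replicate 4 and high replicate 5. Excitatory markers, from Slc17a7 to Prox1, summed to 849.7, 695 and 672 CPM in these 3 libraries, against 47.5 to 333 CPM in the other 15. The hypothalamic peptide genes summed to 0.596, 1.14 and 0.860 CPM in the same 3 and ran from 0.942 to 42.9 CPM in the other 15, where low replicate 2 and high replicate 1 were as low (0.942 and 1.09 CPM) with 22.6 and 16.3 CPM of Irs4. The striatal projection neuron genes summed to 1074, 1400 and 938 CPM in the 3 libraries, within the range of the others. Low replicate 5, with the most Irs4 (113 CPM), had the lowest striatal sum, 618 CPM. The share of neighbouring tissue in each dissection was not measured, and the part of these markers in the level of Irs4 was not tested.

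**Figure D3:**
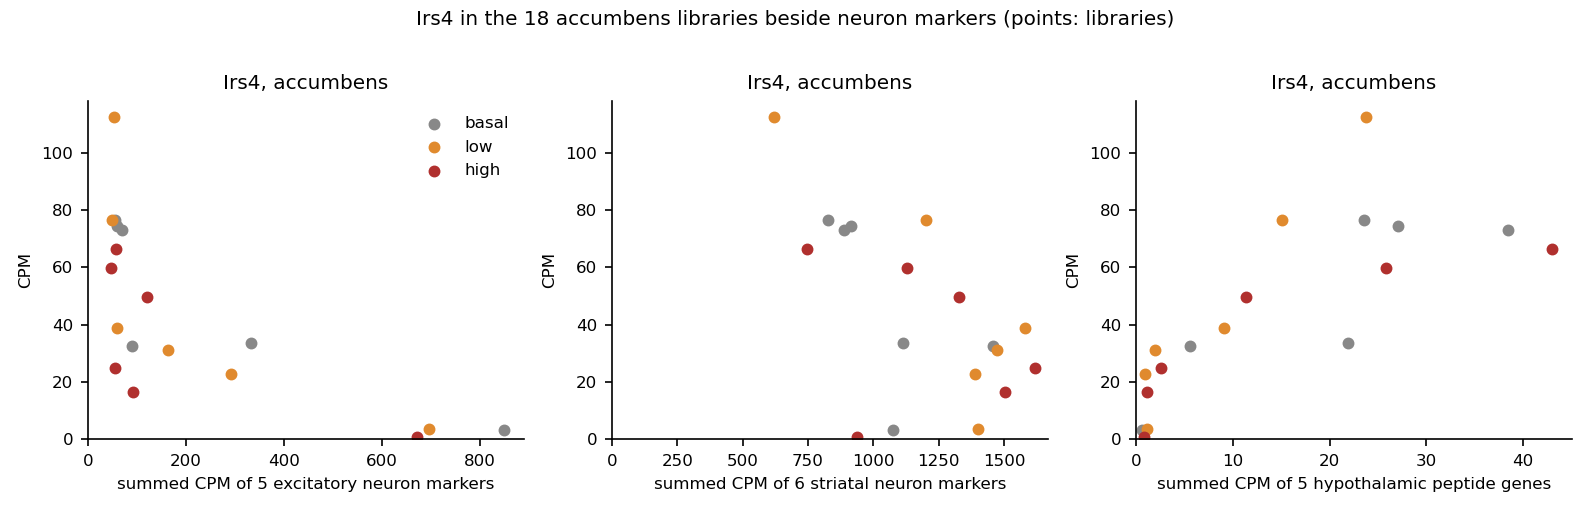
The level of Irs4 in CPM in the 18 accumbal libraries is plotted against the summed CPM of 5 excitatory, 6 striatal and 5 hypothalamic peptide markers, with basal in grey, low in orange and high in red. The 3 libraries with Irs4 below 3.43 CPM are those with excitatory sums above 672 CPM.

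Across the 18 accumbal libraries the genes whose level was most like that of Irs4 were the calcitonin receptor gene Calcr (Pearson r = 0.984 of log2(CPM + 1)), Dgkk (0.981), AW551984 (0.977), the GABA receptor subunit gene Gabrq (0.972), Arhgap36 (0.972), Grb10 (0.968), the orphan receptor gene Gpr101 (0.967) and the prolactin receptor gene Prlr (0.963). This list was drawn up after the accumbal values were seen, and the points share libraries and dissection. Calcr averaged 29.9 CPM in the hypothalamus, 12.5 CPM in the accumbens and 0 CPM in the hippocampus, the order that Irs4 has. Of the 8 genes, Prlr alone had another order, with 41.5, 22.9 and 32.1 CPM in those regions. The genes with the lowest r were Trim9 (-0.952), Nell2 (-0.944), Lingo1 (-0.938), Stum (-0.936) and the calmodulin kinase gene Camk2a (-0.935).

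Igf1 rose in the hypothalamus at the low rate of insulin, the only one of the 8 genes to pass the test for insulin against saline in any region. Igf1 had 5.80, 5.85, 9.04, 9.42 and 9.17 CPM in basal, 9.72, 18.9, 10.5, 13.4, 10.5 and 14.9 CPM in low and 10.5, 7.98, 9.48, 11.1 and 12.9 CPM in high libraries. All 6 low libraries stood above every basal one, and the high libraries overlapped both groups. The means were 13.0 ± 3.53 CPM in low (SD, n = 6) and 7.86 ± 1.86 CPM in basal (n = 5), a fitted log2 fold change of 0.77 (SE 0.21, 95% interval 0.33 to 1.21, adjusted p = 0.0418) by edgeR's quasi-likelihood test over 14139 genes. In high libraries the mean was 10.4 ± 1.85 CPM (n = 5), with 4 of 5 above every basal one and a fitted log2 fold change of 0.44 (SE 0.22, adjusted p = 0.224). High differed from low by -0.33 (SE 0.20, adjusted p = 0.9999). Each of these values rests on 24 to 99 Igf1 reads per library. At the low rate 1 of 8 genes was called, beside 5.38% of all genes tested (3.59% higher and 1.78% lower). The groups of 1 of the 8 did not overlap with low above basal, beside 1.44% of all genes.

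The Igf1 call depended on the setting. It held with DESeq2 size factors (0.77, adjusted p = 0.0431), with total-count scaling, in DESeq2 (0.77, adjusted p = 0.0132) and with the choroid plexus score as a covariate, and it was lost with the other 8 settings, among them the run of title numbers (0.62, adjusted p = 0.172), the lean to GC-rich transcripts as a covariate (0.59, adjusted p = 0.364), leaving out libraries that lacked a peptide gene (0.57, adjusted p = 0.136) and leaving out the leaning libraries (0.53, adjusted p = 0.811). The fit without the leaning libraries kept only replicates 3 and 4 in the basal group. Leaving out each of the 16 libraries in turn gave log2 fold changes between 0.61 and 0.84, and the call held without basal replicate 3 or 4 or low replicate 1 or 5 and was lost without any of the other 12. Across the 52 libraries Igf1 had a Pearson r of -0.563 with the lean, its low and high libraries in the hypothalamus included none that leaned, and the part of the lean in the difference was not tested beyond these fits. Within the highest range of title numbers, low replicates 4 to 6 had 13.4, 10.5 and 14.9 CPM and basal replicates 3 to 5 had 9.04, 9.42 and 9.17 CPM. In the lowest range 1 low library had 9.72 CPM against 5.80 and 5.85 CPM in 2 basal ones, and the middle range held no basal library.

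Igf2, the other growth factor gene, had 12.0, 11.4, 21.8, 20.8 and 19.2 CPM in basal, 8.83, 93.3, 80.2, 17.9, 20.6 and 19.9 CPM in low and 13.9, 14.6, 18.8, 20.5 and 16.1 CPM in high hypothalamic libraries. Low replicates 2 and 3 stood far above the other 14, which overlapped. The fitted log2 fold change was 1.26 (SE 0.48, adjusted p = 0.104) for low over basal and 0.01 (SE 0.51, adjusted p = 0.994) for high over basal, and neither passed. The low value was 0.79, adjusted p = 0.231 without low replicate 2, 0.95, adjusted p = 0.217 without low replicate 3 and 1.44, adjusted p = 0.0420 without low replicate 1. It was 0.26, adjusted p = 0.728 with the range of title numbers as a term and 0.56, adjusted p = 0.183 with the fibroblast score, and over the 12 other settings it lay between 0.26 and 1.27.

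The receptor genes Insr and Igf1r had higher means in insulin-infused than in saline hypothalamus without passing the test. Insr had 100.2, 77.6, 111, 149.6 and 54.8 CPM in basal, 109.5, 147, 144, 143, 143 and 127 CPM in low and 133, 129, 136, 129 and 107 CPM in high libraries. The basal libraries spanned the whole range and the low and high ones lay close together. Its log2 fold change was 0.49 (SE 0.18, adjusted p = 0.0913) at the low rate and 0.39 (SE 0.18, adjusted p = 0.208) at the high rate. Igf1r had 42.2, 33.1, 35.3, 60.5 and 21.7 CPM in basal, 35.6, 56.8, 49.0, 57.4, 61.1 and 59.7 CPM in low and 46.0, 49.2, 53.7, 48.4 and 33.3 CPM in high libraries, with log2 fold changes of 0.51 (SE 0.20, adjusted p = 0.110) and 0.29 (SE 0.21, adjusted p = 0.373). Both values were small without the leaning libraries, where Insr gave 0.09, adjusted p = 0.937 at the low rate and -0.01, adjusted p = 0.9998 at the high rate, and Igf1r gave 0.21, adjusted p = 0.883 and -0.01, adjusted p = 0.9998. That fit kept only replicates 3 and 4 in the basal group, and replicate 4 had the highest basal level of both genes. With the lean as a covariate Insr gave 0.24, adjusted p = 0.639 and 0.15, adjusted p = 0.998, and Igf1r gave 0.29, adjusted p = 0.669 and 0.09, adjusted p = 0.9996. Both genes passed with the choroid plexus score as a covariate, which gave 0.67, adjusted p = 0.0150 for Insr and 0.74, adjusted p = 0.0123 for Igf1r at the low rate, and at the low rate without basal replicate 4 (0.68, adjusted p = 0.00924 for Insr and 0.71, adjusted p = 0.0136 for Igf1r). At the high rate the choroid score gave 0.62, adjusted p = 0.0302 for Insr and 0.59, adjusted p = 0.0373 for Igf1r. Insr gave 0.58, adjusted p = 0.0334 without basal replicate 4 at that rate. Of the 12 other settings, the choroid score was the only 1 that called either gene, and it was chosen after seeing the data. Its markers summed to only 38.6 to 65.6 CPM in the hypothalamus, and 3 of the 9 averaged below 1 CPM. The score is therefore a poor measure of choroid plexus in this region. Igf2r had 83.9, 78.4, 96.4, 88.7 and 40.6 CPM in basal, 71.0, 66.9, 89.2, 89.5, 84.9 and 78.0 CPM in low and 80.3, 81.8, 83.3, 74.9 and 64.8 CPM in high libraries, and gave 0.06 (SE 0.16, adjusted p = 0.813) and 0.00 (SE 0.17, adjusted p = 0.988). Its groups overlapped throughout.

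Of the adaptors, Irs1 stood slightly higher with insulin. It had 13.9, 13.6, 13.7, 13.7 and 2.71 CPM in basal, 16.5, 15.0, 16.3, 16.5, 13.5 and 16.9 CPM in low and 14.8, 16.0, 17.7, 15.4 and 14.2 CPM in high hypothalamic libraries. At the high rate all 5 libraries stood above every basal one, beside 1.61% of all genes with such a split, and at the low rate 5 of 6 did. The log2 fold changes were 0.47 (SE 0.25, adjusted p = 0.211) and 0.45 (SE 0.26, adjusted p = 0.273), neither past the threshold, and without basal replicate 5 they were 0.22, adjusted p = 0.268 and 0.20, adjusted p = 0.379. Irs2 had 63.8, 58.3, 55.9, 69.9 and 20.2 CPM in basal, 40.3, 43.2, 43.7, 40.9, 55.3 and 50.5 CPM in low and 49.9, 60.5, 55.3, 46.5 and 42.2 CPM in high libraries. All 6 low values lay below 4 of the 5 basal ones, above the fifth, and the log2 fold changes were -0.21 (SE 0.21, adjusted p = 0.514) and -0.06 (SE 0.22, adjusted p = 0.885). Irs4 had 153, 113, 184, 126 and 62.5 CPM in basal, 112, 44.4, 137, 157, 107 and 84.6 CPM in low and 141, 121, 162, 118 and 102 CPM in high libraries, overlapping throughout, with log2 fold changes of -0.24 (SE 0.26, adjusted p = 0.555) and 0.03 (SE 0.28, adjusted p = 0.960). Basal replicate 5, one of the leaning libraries (0.415), had the lowest basal level of Insr, Igf1r, Igf2r, Irs1, Irs2 and Irs4. Basal replicates 1 and 2 leaned more (0.635 and 0.7).

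At the high rate 0 of 8 genes were called in the hypothalamus by edgeR, beside 0.184% of all genes tested (0.177% higher and 0.00707% lower). High against low gave 0 of 8, beside 0% of all genes. The median log2 fold change of the 8 genes was 0.48 at the low rate and 0.16 at the high rate, beside -0.02 and -0.03 over all genes. Positive values numbered 6 of 8 and 7 of 8, beside 47.9% and 47.5% of all genes. Among those at the high rate, Igf2r, Igf2 and Irs4 lay at only 0.005, 0.007 and 0.026. The genes are not independent points, since Insr, Igf1r, Igf2r and Irs1 varied alike across libraries and the leaning hypothalamic libraries were all basal. These figures describe the set and do not test it. For low over basal, the unadjusted p in edgeR's quasi-likelihood test was 0.0134 for Insr, 0.0206 for Igf1r, 0.00168 for Igf1 and 0.0179 for Igf2. These lay under 0.05, but the share of all genes under 0.05 in that comparison is not given here. They are therefore not read as a trait of the set. At an unadjusted p under 0.05, 0 of 8 genes passed for high over basal, beside 24.1% of all genes, and 1 of 8 (Igf2) for high over low, beside 1.41%. DESeq2 called 0 of 8 for high over basal and for high over low.

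**Figure D4:**
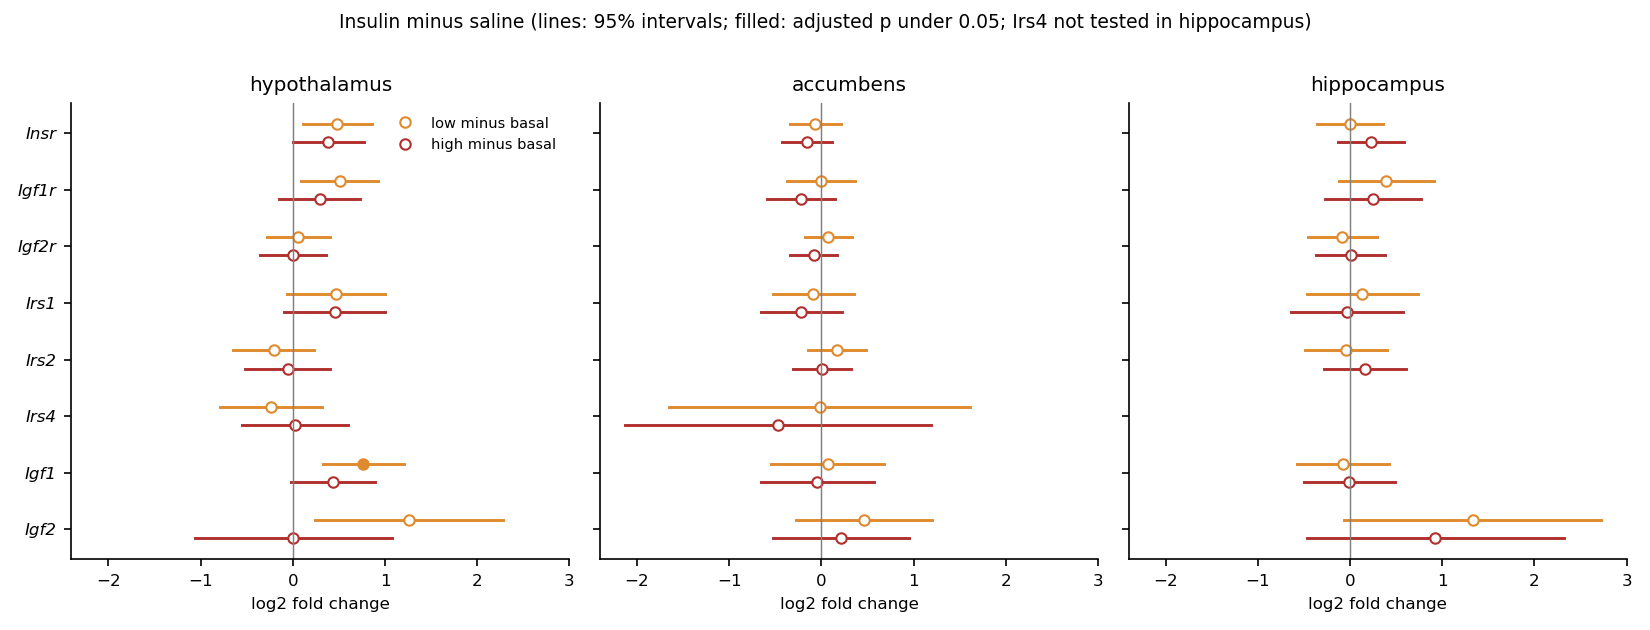
Log2 fold changes of the 8 genes for low over basal and high over basal in each region are drawn with 95% intervals, and a filled mark shows a call at an adjusted p under 0.05. The filled mark is Igf1 at the low rate in the hypothalamus, at 0.77, and Irs4 has no value in the hippocampus.

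In the hippocampus and the accumbens no gene of the 8 passed the test at either rate. In the hippocampus 0 of 7 tested were called for low over basal, high over basal and high over low, and in the accumbens 0 of 8, beside 0% of all genes in each of these 6 comparisons. By edgeR no gene of the set reached an unadjusted p under 0.05 in any of the 6. Over all genes 6.05%, 2.61% and 2.84% did so for low over basal, high over basal and high over low in the hippocampus, and 1.42%, 2.37% and 2.12% in the accumbens. DESeq2 called 0 of the 8 genes in these comparisons. Igf2 varied widely in both regions. It had 21.6, 14.7, 15.9, 46.2, 39.8 and 86.6 CPM in basal, 91.5, 114, 18.5, 20.7, 83.3 and 239 CPM in low and 27.2, 53.8, 59.1, 47.9, 224 and 14.4 CPM in high hippocampal libraries, with log2 fold changes of 1.33 (SE 0.67, adjusted p = 0.833) and 0.92 (SE 0.66, adjusted p = 1). Single libraries carried these values, since low over basal was 0.81, adjusted p = 0.972 without low replicate 6 and high over basal 0.09, adjusted p = 0.9998 without high replicate 5. With the choroid plexus score as a covariate they were -0.06, adjusted p = 0.998 and 0.04, adjusted p = 0.9996, and with the fibroblast score 0.42, adjusted p = 0.9998 and 0.47, adjusted p = 0.9996. In the accumbens Igf2 had 12.7, 14.5, 45.3, 15.0, 16.7 and 19.6 CPM in basal, 56.5, 18.8, 24.9, 21.3, 22.1 and 23.5 CPM in low and 22.9, 20.0, 15.6, 17.4, 46.0 and 17.1 CPM in high libraries. A high library occurred in every accumbal group, and the log2 fold changes were 0.46 (SE 0.35, adjusted p = 1) and 0.21 (SE 0.35, adjusted p = 0.9999).

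Insr had 70.6, 108, 98.4, 110.2, 131 and 100.1 CPM in basal, 88.7, 137, 110.4, 102, 59.9 and 120.5 CPM in low and 88.6, 117, 134, 111, 143 and 129 CPM in high hippocampal libraries, and gave 0.00 (SE 0.17, adjusted p = 0.998) and 0.23 (SE 0.17, adjusted p = 1). In the accumbens its values were 126, 139, 131, 148, 141 and 135 CPM in basal, 112, 171, 136, 122, 121 and 128 CPM in low and 109, 87.1, 176, 116, 123 and 128 CPM in high libraries, with -0.07 (SE 0.13, adjusted p = 1) and -0.16 (SE 0.13, adjusted p = 0.9999). The insulin-infused groups of both regions enclosed or overlapped the basal range. Igf1r lay between 33.6 and 61.2 CPM in basal, between 28.1 and 71.7 CPM in low and between 26.8 and 77.3 CPM in high hippocampal libraries, with 0.40 (SE 0.25, adjusted p = 0.917) and 0.25 (SE 0.25, adjusted p = 1). In the accumbens Igf1r gave -0.004 (SE 0.18, adjusted p = 1) and -0.22 (SE 0.18, adjusted p = 0.9999). For Igf2r the levels lay between 35.5 and 106 CPM over all hippocampal libraries and between 53.8 and 94.2 CPM over all accumbal ones.

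The adaptors overlapped between infusions in these regions as well. Irs1 lay between 4.44 and 21.5 CPM over the hippocampal and between 4.44 and 16.2 CPM over the accumbal libraries, and Irs2 between 22.8 and 76.4 CPM and between 40.9 and 71.7 CPM. The hippocampal minimum of Insr, Igf2r, Irs1, Irs2 and Igf1 was in each case low replicate 5, which leaned to GC-rich transcripts at 0.403, just past the cut of 0.4. Replicate 1 of the basal, low and high groups leaned more (0.562, 0.55 and 0.608), and the part of the lean was not tested. Igf1 lay between 10.5 and 16.0 CPM in basal, between 5.71 and 15.7 CPM in low and between 6.98 and 17.8 CPM in high hippocampal libraries, and between 4.37 and 12.8, between 5.41 and 12.5 and between 3.27 and 12.8 CPM in the accumbal ones. Against basal, the log2 fold changes of Igf2r, Irs1, Irs2 and Igf1 over both rates lay between -0.09 and 0.17 in hippocampal libraries and between -0.22 and 0.17 in accumbal ones. Irs4 gave -0.02 (SE 0.77, adjusted p = 1) and -0.47 (SE 0.78, adjusted p = 0.9999) in the accumbens, with wide intervals that follow its spread. In the hippocampus Irs4 had 0 to 7 reads per library and was not tested.

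Whether the effect of infusion differed between regions was tested over all 52 libraries. By edgeR's quasi-likelihood F test of the interaction, 0 of 8 genes were called, beside 0% of 14985 genes tested. No difference between the regions was shown for Igf1 (F = 1.41, adjusted p = 0.626), although it was called in the hypothalamus alone. Insr had the smallest p of the 8 (F = 2.19, adjusted p = 0.478). At an unadjusted p under 0.05, 0 of 8 genes passed, beside 11.2% of all genes, and DESeq2 was not run for this test.

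In the hippocampus Igf2 followed markers of the choroid plexus and of fibroblasts from library to library. Slc6a13, Dcn, Lum, collagen genes and others, 8 in all, marked meningeal and vascular fibroblasts, and Ttr, Kl, Folr1 and 6 others marked choroid plexus epithelium. The summed level of the choroid plexus markers ran from 64.2 to 6484 CPM in the hippocampus, with medians of 141 CPM in basal, 2484 CPM in low and 650.1 CPM in high libraries, against 38.6 to 65.6 CPM in the hypothalamus and 40.8 to 75.9 CPM in the accumbens. Hippocampal low replicate 6 had 6484 CPM of them with 239 CPM of Igf2, high replicate 5 had 2649 CPM with 224 CPM, and high replicate 3 had 2918 CPM with 59.1 CPM. Between log2(CPM + 1) of Igf2 and the mean log2(CPM + 1) of the choroid plexus markers over the 18 hippocampal libraries, Pearson r was 0.960 (permutation p = 1e-05, adjusted 6e-05) and Spearman rho 0.971 (permutation p = 1e-05, adjusted 6e-05), where 1e-05 is the smallest p that 100000 permutations can give and p-values were adjusted over 6 relations. Without the 2 libraries farthest from the median the r was 0.948, and within the middle and the highest range of title numbers it was 0.981 and 0.950. For the fibroblast markers in the hippocampus, Pearson r was 0.805 (permutation p = 9e-05, adjusted 0.000180) and Spearman rho 0.831 (permutation p = 6e-05, adjusted 0.000180), and r was 0.758 without the 2 farthest and 0.972 and 0.794 within those ranges.

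In the accumbens Igf2 went with the fibroblast markers, and no relation with the choroid plexus markers was seen. The choroid plexus sums there spanned only 40.8 to 75.9 CPM, and 4 of the 9 markers averaged below 1 CPM. That score therefore had little range in which a relation could show. Over 18 libraries Pearson r was 0.890 (permutation p = 3e-05, adjusted 9e-05) and Spearman rho 0.645 (permutation p = 0.00480, adjusted 0.00960) for the fibroblast markers, with r of 0.756 without the 2 farthest libraries and 0.834 and 0.857 within the middle and highest ranges of title numbers. The 3 accumbal libraries with the most Igf2, low replicate 1, high replicate 5 and basal replicate 3, had the 3 highest fibroblast sums, 99.3, 59.5 and 46.2 CPM. For the choroid plexus markers there, Pearson r was -0.310 (permutation p = 0.210, adjusted 0.252) and Spearman rho -0.123 (permutation p = 0.630, adjusted 0.630), with r of 0.105 without the 2 farthest and -0.530 and 0.232 within those ranges. In the hypothalamus, over 16 libraries, Pearson r was 0.841 (permutation p = 0.00179, adjusted 0.00268) and Spearman rho 0.459 (permutation p = 0.0774, adjusted 0.116) for the fibroblast markers. Low replicates 2 and 3 had fibroblast sums of 105 and 78.2 CPM. As measured, that relation rested on the 2 libraries farthest from the median, without which r was 0.208, and r was 0.227 within the highest range of title numbers. With values centred on their infusion group, Pearson r was 0.840 (permutation p = 7e-05, adjusted 0.000140) and Spearman rho 0.779 (permutation p = 0.000570, adjusted 0.00171), with r of 0.598 without the 2 farthest and 0.775 within the highest range. For the choroid plexus markers in the hypothalamus, Pearson r was -0.0281 (permutation p = 0.918, adjusted 0.918) and Spearman rho -0.165 (permutation p = 0.542, adjusted 0.630), with r of 0.222 without the 2 farthest and -0.358 within the highest range. Their sums in the hypothalamus also had little range, 38.6 to 65.6 CPM, and 3 of the 9 averaged below 1 CPM. The part of these cells in the regional and infusion differences of Igf2 was not tested beyond the fits with their scores.

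**Figure D5:**
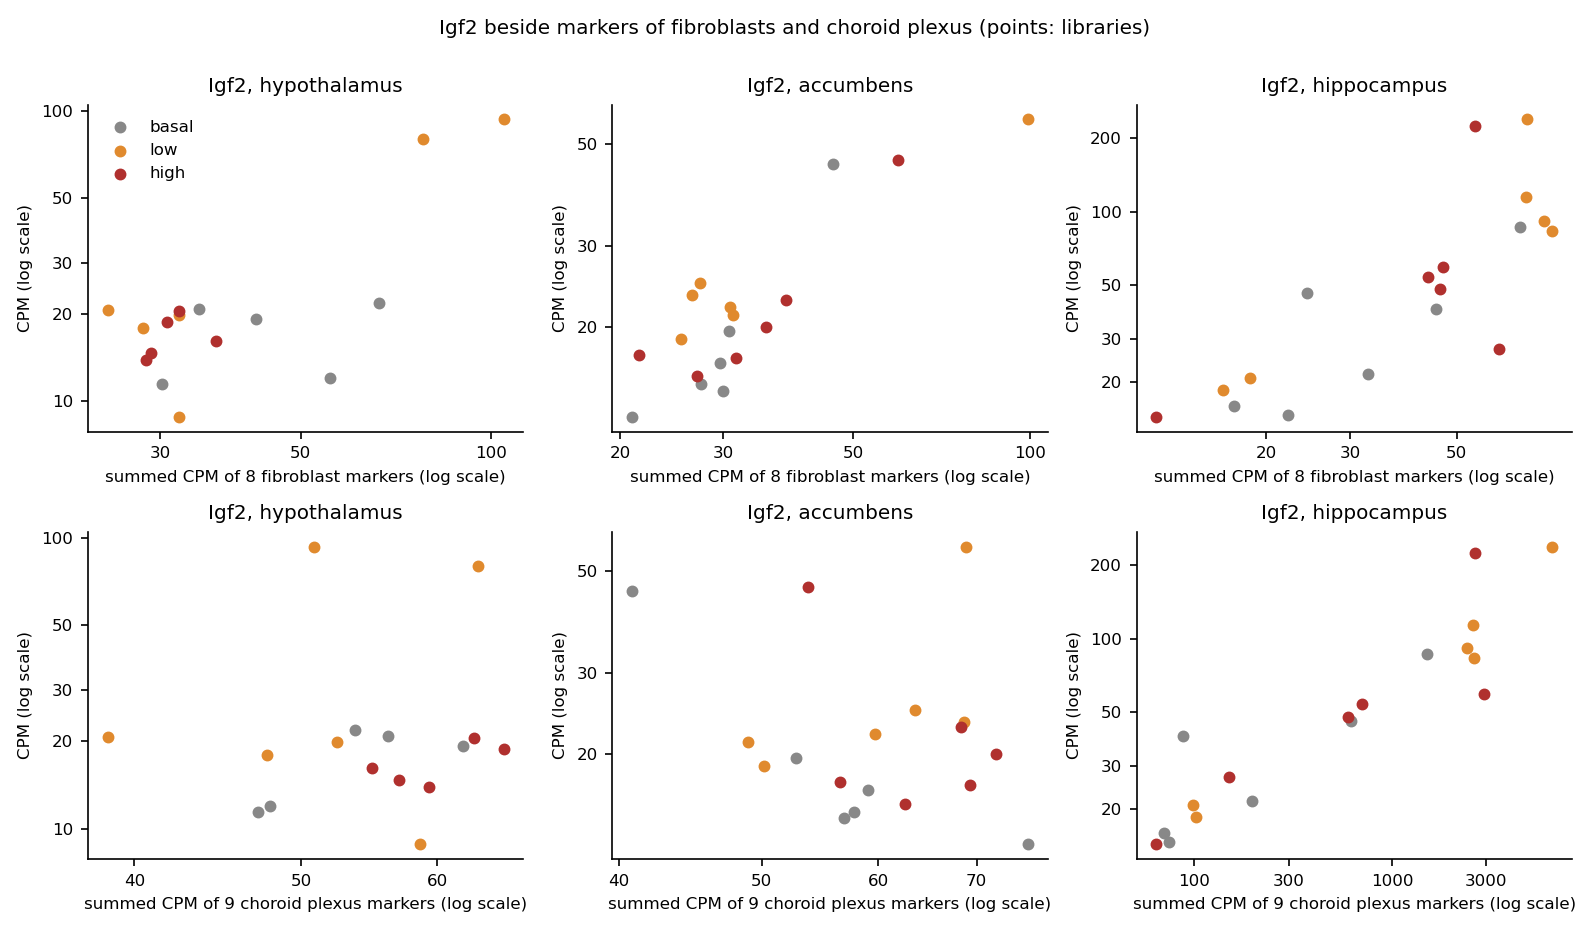
Igf2 in CPM is plotted against the summed CPM of 8 fibroblast markers in the upper row and 9 choroid plexus markers in the lower row for each region, on log axes, with basal in grey, low in orange and high in red. The hippocampal points rise together over choroid plexus sums from 64.2 to 6484 CPM, and 2 low libraries of the hypothalamus and 1 library of each infusion in the accumbens stand apart at high fibroblast sums.

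Insr, Igf1r, Igf2r and Irs1 varied alike from library to library once each region's mean was taken out. Pearson r of log2(CPM + 1) over 52 libraries lay between 0.626 and 0.765 in their 6 pairs, highest for Insr with Igf1r. Irs2 had an r of 0.676 with Igf2r and 0.364 to 0.491 with the other 3. It was 0.0938 for Igf1 with Igf2 and -0.152 for Irs2 with Igf1. These are descriptions over points that share libraries, depth and base composition. The r with the lean to GC-rich transcripts was -0.663 for Insr, -0.563 for Igf1, -0.382 for Igf1r and for Irs1, -0.323 for Igf2r, 0.217 for Irs2 and -0.0884 for Igf2. Among genes with a mean of at least 5 CPM, those most like Insr were Arhgef12 (0.928), Alg10b (0.914) and Itsn2 (0.913). For Igf1r they were the kinase gene Hipk2 (0.831), the ubiquitin ligase gene Herc2 (0.828) and the kinesin gene Kif1b (0.827). Those nearest to Igf2r were Wdfy3 (0.897), Srrm2 (0.885) and Ubr2 (0.873). Irs1 was nearest to Nr2c2 (0.842), Stk24 (0.836) and the salt-inducible kinase gene Sik2 (0.831). Irs2 was nearest to Vps33a (0.834), Ptprn2 (0.830) and the polycystin gene Pkd1 (0.826). For Igf1 the nearest were Cdk14 (0.828), Eif1ax (0.801) and Rab6a (0.785). Igf2 stood nearest to the transporter genes Slc13a4 (0.919) and Slc6a20a (0.855) and to Igfbp2 (0.782), which encodes an IGF-binding protein.

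Genes that act beside these receptors were followed as lists. In the hypothalamus at the low rate, 9 of 12 carriers and proteases of the IGFs could be tested, of which 1 rose and 0 fell. The gene that rose was Pappa, a protease that frees IGF from its binding protein, with a mean of 8.66 CPM in low and 2.67 CPM in basal libraries and a fitted log2 fold change of 1.75 (SE 0.38, adjusted p = 0.0219). Of 12 tested brakes on the receptors, 1 rose, the ubiquitin ligase gene Cbl, which averaged 32.5 CPM in low and 8.20 CPM in basal libraries, a fitted log2 fold change of 2.07 (SE 0.33, adjusted p = 0.00417). Of 13 tested adaptors that bind the receptors, 1 fell, Sh2b1, an adaptor that aids insulin and leptin signalling, with 20.3 CPM in low and 30.7 CPM in basal libraries (-0.59, SE 0.15, adjusted p = 0.0391). Among 13 genes known to respond to FOXO factors, 1 rose and 1 fell. Sesn3 averaged 55.2 CPM in low and 17.0 CPM in basal libraries, a fitted log2 fold change of 1.74 (SE 0.18, adjusted p = 6.70e-05), and Angptl4 averaged 6.46 CPM and 13.9 CPM (-1.11, SE 0.20, adjusted p = 0.0101). Of 8 relatives, among them the insulin genes, 1 could be tested, Igf2bp3, with 0.62 (SE 0.23, adjusted p = 0.0979). The medians of the carriers, adaptors, brakes and FOXO-responsive genes were 0.21, -0.01, 0.23 and -0.13, beside -0.02 over all genes. Over all genes 5.38% were called in this comparison (3.59% higher and 1.78% lower), against which these counts of 1 or 2 calls a list are to be read.

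At the high rate the calls were Cbl (1.91, SE 0.34, adjusted p = 0.0188) and Sesn3 (1.68, SE 0.18, adjusted p = 0.000351), which rose, and Angptl4 (-1.11, SE 0.21, adjusted p = 0.0369), which fell, with high means of 29.1, 53.1 and 6.40 CPM. No carrier was called there, Pappa giving 1.38 (SE 0.39, adjusted p = 0.120) and Igfbp3 -0.41 (SE 0.20, adjusted p = 0.205). No adaptor was called either, Sh2b1 giving -0.71 (SE 0.16, adjusted p = 0.0688) and Dok4 -0.55 (SE 0.17, adjusted p = 0.134), nor was Igf2bp3 (0.58, SE 0.24, adjusted p = 0.173). Sesn3 kept its low-rate call in all 12 other settings. Cbl lost it in 4 of them, Pappa in 5, Angptl4 in 5 and Sh2b1 in 7, in each case including the fits with the range or run of title numbers, with the GC lean and without the leaning libraries. On leaving out each of the 16 libraries in turn, Sesn3 and Cbl kept the low-rate call in 16, Angptl4 in 15, Pappa in 12 and Sh2b1 in 7. At the high rate Sesn3 kept its call in 10 of the 12 other settings, Angptl4 in 6 and Cbl in 5, and on leaving out each library Sesn3 kept it in 16 fits, Cbl in 12 and Angptl4 in 8. In the hippocampus and the accumbens 0 genes of these lists were called at either rate, and the smallest p-values belonged to Gab1 (0.65, SE 0.18, adjusted p = 0.284) and Sh2b2 (1.03, SE 0.29, adjusted p = 0.293) at the low rate in the hippocampus. The insulin genes were at the limit of detection, with 0 Ins1 reads over all 52 libraries and 1, 0 and 10 Ins2 reads over the hypothalamic, accumbal and hippocampal ones.

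Between saline regions more genes of these lists were called, as of all genes, and log2 fold changes are given beside each name. The lists held 5 calls among 10 tested carriers, 7 among 14 adaptors, 6 among 11 brakes and 9 among 13 FOXO-responsive genes between hypothalamus and hippocampus, beside 44.1% of all genes. Between accumbens and hippocampus they held 3, 5, 7 and 5, beside 27.9%, and between hypothalamus and accumbens 4, 2, 1 and 5, beside 29.0%. Of the IGF carriers, the hypothalamus had 1 higher, Pappa2 (1.67), and 4 lower than the hippocampus, Igfbp4 (-3.10), Igfbp6 (-2.10), Igfbp2 (-1.77) and Stc2 (-1.35). The accumbens had 0 higher and 3 lower than the hippocampus, Stc2 (-1.27), Igfbp5 (-1.04) and Igfbp4 (-1.02), and the hypothalamus had Igfbp5 (0.74) and Igfbp3 (0.58) higher and Igfbp6 (-2.19) and Igfbp4 (-2.08) lower than the accumbens. These proteins bind IGFs outside the cell or govern their release. Grb10, an imprinted inhibitor of the insulin receptor, averaged 354 CPM in the hypothalamus, 252 CPM in the accumbens and 54.4 CPM in the hippocampus. Of the brakes as a whole, the hypothalamus had Grb10 (2.69) and Ptprf (1.36) higher and Cblb (-1.69), Socs2 (-1.10), Grb14 (-1.04) and Ptpn1 (-0.85) lower than the hippocampus. The accumbens had Grb10 (2.21), Cbl (1.94) and Ptprf (1.06) higher and Cblb (-1.49), Grb14 (-0.77), Socs2 (-0.65) and Ptpn1 (-0.60) lower than the hippocampus, and Cbl (-2.08) was lower in the hypothalamus than in the accumbens. Among the adaptors, the hypothalamus had Sh2b2 (1.61), Gab2 (1.04), Dok5 (0.69), Shc3 (0.65) and Gab1 (0.54) higher and Dok1 (-1.19) and Crk (-0.68) lower than the hippocampus. The accumbens had Shc3 (1.33), Sh2b2 (1.20), Gab2 (0.69) and Gab1 (0.44) higher and Dok1 (-1.42) lower than the hippocampus. Between hypothalamus and accumbens, Gab2 (0.35) was higher and Shc3 (-0.68) lower. The FOXO-responsive genes split in both directions too. In the hypothalamus Angptl4 (1.39), Sesn3 (1.17), Txnip (0.74), Cited2 (0.67), Pik3ip1 (0.56) and Klf15 (0.45) were higher and Bcl6 (-1.29), Fbxo32 (-0.77) and Sesn1 (-0.58) lower than in the hippocampus. In the accumbens Sesn3 (3.01), Angptl4 (0.95) and Cited2 (0.39) were higher and Bcl6 (-1.17) and Sesn1 (-0.37) lower than in the hippocampus. The hypothalamus had Txnip (0.64) and Pik3ip1 (0.41) higher and Sesn3 (-1.84), Fbxo32 (-0.91) and Sgk1 (-0.54) lower than the accumbens. Of the relatives, 0 were called in any of the 3 comparisons. Of the 27 list calls between hypothalamus and hippocampus, 20 held in all 9 other settings and on leaving out each of the 17 libraries, as did 14 of 20 between accumbens and hippocampus and 4 of 12 between hypothalamus and accumbens. In the last of these the 4 were Fbxo32, Igfbp4, Igfbp5 and Igfbp6. With all 52 libraries fitted, Sesn3 and Cbl gave -0.40, adjusted p = 0.224 and -0.34, adjusted p = 0.438 for hypothalamus over accumbens. That fit spans all infusions, and both genes were higher in insulin-infused than in saline hypothalamus, so it is not the saline comparison. On leaving out each library in the saline comparison of hypothalamus and accumbens, Pik3ip1 kept its call in 6 of 17 fits and Gab2 in 3.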

How the data were processed

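Whole-tissue RNA of 3 brain regions was sequenced as 52 stranded libraries. The authors deposited 1 table of raw read counts per Ensembl gene, and the submitters' processing notes name STAR, featureCounts and GRCm38.p4. Their versions, options, use of strand and gene models are not stated in the labels. GENCODE M21 named 45229 identifiers, and the 842 unnamed ones held 0.0844% of counts and stayed in the tests. Counts per gene merge isoforms and may hold PCR copies, so counting error is a lower limit of error.

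Tests used edgeR 4.0.16 in R 4.3.3 (TMM, filterByExpr, robust quasi-likelihood, 2-sided, Benjamini-Hochberg over all genes tested, calls under 0.05). Each region was fitted alone, regions were compared in the 17 saline libraries, and the interaction used all 52. The 125 pairs of libraries within groups were compared by chi-square, and 0 agreed within sampling noise. Alternatives were DESeq2 1.42.0 and its size factors, total-count scaling, no filter, the range of title numbers or GC lean as terms, fits without leaning or peptide-lacking libraries, 1 fit of 52, and leaving out each library. Between regions, the fit of 52 had infusion as an added term and took in the insulin-infused libraries. Scores of fibroblast and choroid plexus markers as covariates and the run of title numbers as a block were chosen after seeing the data. The steps were tested on simulated data.

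The 8 genes and all lists were chosen with earlier results of these data known. The text names all 8 genes, the called genes of each list or else the 2 with the smallest p (in the hippocampus and accumbens, 2 over all lists), and for each gene tested in all regions the 3 genes with the highest r (mean of at least 5 CPM, no predicted gene). The genes most like Irs4 in the accumbens were chosen after its values were seen. Levels per kb use the merged exon length.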

Additional observations from a re-analysis of the deposited data

Results flagged for a closer look

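A library stood apart from its own group in 11 of the 72 combinations of gene, region and infusion, and about 1 in 20 would do so by chance. In the hypothalamus, high replicate 5 had 107 CPM of Insr against 129 to 136 CPM in the other high libraries. Basal replicate 5 had 2.71 CPM of Irs1 against 13.6 to 13.9 CPM and 20.2 CPM of Irs2 against 55.9 to 69.9 CPM. In the hippocampus, low replicate 5 had 4.44 CPM of Irs1 against 16.9 to 21.5 CPM. These last 2 libraries leaned to GC-rich transcripts, at 0.415 and 0.403, just past the cut of 0.4. Hypothalamic basal replicates 1 and 2 leaned more (0.635 and 0.7), and their Irs1 and Irs2 lay in the ranges given for the other basal libraries. The part of the lean was not tested. Hippocampal basal replicate 6 had 1.38 CPM of Irs4, 7 reads, against 0 to 0.238 CPM, basal replicate 2 had 16.0 CPM of Igf1 against 10.5 to 12.0 CPM, and high replicate 5 had 224 CPM of Igf2 against 14.4 to 59.1 CPM. Accumbal low replicate 2 had 74.7 CPM of Igf2r against 85.3 to 89.2 CPM. For Igf2 in the accumbens, basal replicate 3 had 45.3 CPM against 12.7 to 19.6 CPM, low replicate 1 had 56.5 CPM against 18.8 to 24.9 CPM, and high replicate 5 had 46.0 CPM against 15.6 to 22.9 CPM.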

How the results depend on the processing

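Of 4351 values recomputed under other settings, 3911 kept their direction and side of the threshold, 199 lost a call, 29 gained one, 212 moved otherwise and 0 called values changed sign. Values that were uncalled and stayed so count among the 3911, and called genes of the lists are pooled with the 8. The tally therefore does not measure how firmly calls held. The Igf1 call at the low rate in the hypothalamus held in 4 of 12 other settings and on leaving out 4 of the 16 libraries. In the hypothalamus at the low rate, where 1 of the 8 genes was called, 0 were called with no filter, the range or run of title numbers, the GC lean, the fibroblast score, without leaning or peptide-lacking libraries or in 1 fit of 52, 3 with the choroid plexus score, and 0 to 3 on leaving out each library. At the high rate, where 0 were called, 2 were called with the choroid plexus score and 0 to 1 on leaving out each library. In the hypothalamus the choroid plexus markers were low, with sums of 38.6 to 65.6 CPM. Between saline hypothalamus and hippocampus, 3 were called, against 1 with total-count scaling, no filter or the range or run of title numbers and 1 to 3 on leaving out each library. Between accumbens and hippocampus, 2 were called, against 1 with no filter or the fibroblast score, 5 with all 52 libraries fitted (Insr, Irs1, Irs4, Igf1 and Igf2) and 1 to 3 on leaving out each library. Between hypothalamus and accumbens, 1 was called, against 0 with no filter, DESeq2, the range of title numbers or the fibroblast score, 2 with their run (Insr and Igf1r), 2 with all 52 libraries (Irs4 and Igf1) and 0 to 3 on leaving out each library. For regions, the fit of all 52 libraries spans all infusions and so is not the saline comparison. The cause of these changes was not tested. No gene of the 8 was called in the hippocampus or the accumbens for insulin under any setting run. The interaction stayed at 0 calls on leaving out each of the 16 hypothalamic libraries, and the other 36 were not left out in that test. Calls over all genes ranged more widely, from 3 to 3484 over the other settings and 52 to 3171 on leaving out a library for low over basal in the hypothalamus (760 as reported), and from 0 to 2889 and 6 to 1861 for high over basal (26 as reported). No paired analysis was possible because the labels give no replicate numbers that pair libraries, and whether libraries of 1 run of title numbers share a mouse or a day is not stated. Igf1, Irs1 and hippocampal Irs4 rest on few reads per library, which limits what could be detected for them.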
